A study of Mus musculus with 6 samples.

Results

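A set of 10 genes that control mitochondrial and fatty acid metabolism was followed in mouse embryonic hearts that lacked the RNA-binding proteins RBPMS and RBPMS2 in cardiomyocytes. The 10 genes, of 45706 in the deposited table, were chosen by name and function: the PGC-1 coactivator genes Ppargc1a, Ppargc1b and Pprc1, the estrogen-related receptor (ERR) genes Esrra, Esrrb and Esrrg, the peroxisome proliferator-activated receptor (PPAR) genes Ppara and Ppard, the mitochondrial transcription factor gene Tfam, and Nrf1, the gene of nuclear respiratory factor 1. Poly(A) RNA was sequenced from stranded, paired-end libraries of 3 double knockout hearts and 3 littermate control hearts of strain C57BL6/J. The knockouts were floxed on both copies of Rbpms and of Rbpms2 and carried Cre recombinase under the promoter labelled aMyHC, that of the alpha-myosin heavy chain gene Myh6, which drives expression in heart muscle cells. The controls had the same floxed alleles, and their genotype names no Cre, so the transgene and the deletion cannot be told apart. The embryonic day is not given, other cells of the heart keep both genes, and nothing states whether hearts of 1 group came from separate litters.

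PGC-1 coactivators do not bind DNA themselves. They dock on nuclear receptors such as the ERRs and PPARs and on NRF1, and so raise transcription of genes for fatty acid oxidation, the citrate cycle and the respiratory chain, while NRF1 and its partner GABP also drive Tfam, whose protein packs and transcribes mitochondrial DNA. The developing heart draws largely on glucose and lactate, and this network is known for building up mitochondria and fatty acid use towards birth and after it.

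Of these regulators, Ppargc1b and Esrrb fell in the knockouts, no member rose, and 8 of the 10 did not pass the test. All 10 passed the filter of a mean normalized value of at least 10. The test was limma on log2(value + 1) with a Benjamini-Hochberg adjustment over 15556 genes and a threshold of 0.05. It called 17.2% of all genes tested, 8.61% higher and 8.56% lower, beside 2 of 10 members. The groups did not overlap for 5 members, 4 lower and 1 higher in the knockouts, against 35.4% of all genes tested. The log2 fold change, knockout over control, was below 0 for 9 members with a median of -0.23, where the median of all genes tested was 0.00. Values below are normalized values, that is reads per gene already divided by a factor per heart.

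Hearts differed in facts that touch every result below. Rbpms was at 1134, 1117 and 852 in the knockouts and at 6998, 3868 and 7656 in the controls, and Rbpms2 was at 879, 1003 and 911 in the knockouts and at 1711, 1362 and 1998 in the controls, so both targeted genes were lower in every knockout. By sex-linked genes, the knockouts were 1 female and 2 males and the controls 2 females and 1 male. Estimated depths ran from 14759382 to 25837261 reads in the knockouts and from 12959343 to 21331106 in the controls. Summed values of 15 cardiomyocyte markers were 1042528 to 1168672 in the knockouts and 1283527 to 1311119 in the controls. Those of 10 fibroblast markers were 128394 to 159388 in the knockouts and 97350 to 111663 in the controls. In the cardiomyocyte sum, Myh6 and Actc1 differed most, and 11 of the 15 markers did not pass the test. Myh6 had means of 34233 in knockouts and 98536 in controls, and Actc1 of 216420 in knockouts and 280080 in controls. In whole hearts, fewer cells of a type and less RNA per cell cannot be told apart. Each member was therefore also tested after shifting each heart by the median deviation of its cardiomyocyte markers, a scaling chosen after the data were seen, which moved the median log2 fold change of all genes to 0.18.

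**Figure D1:**
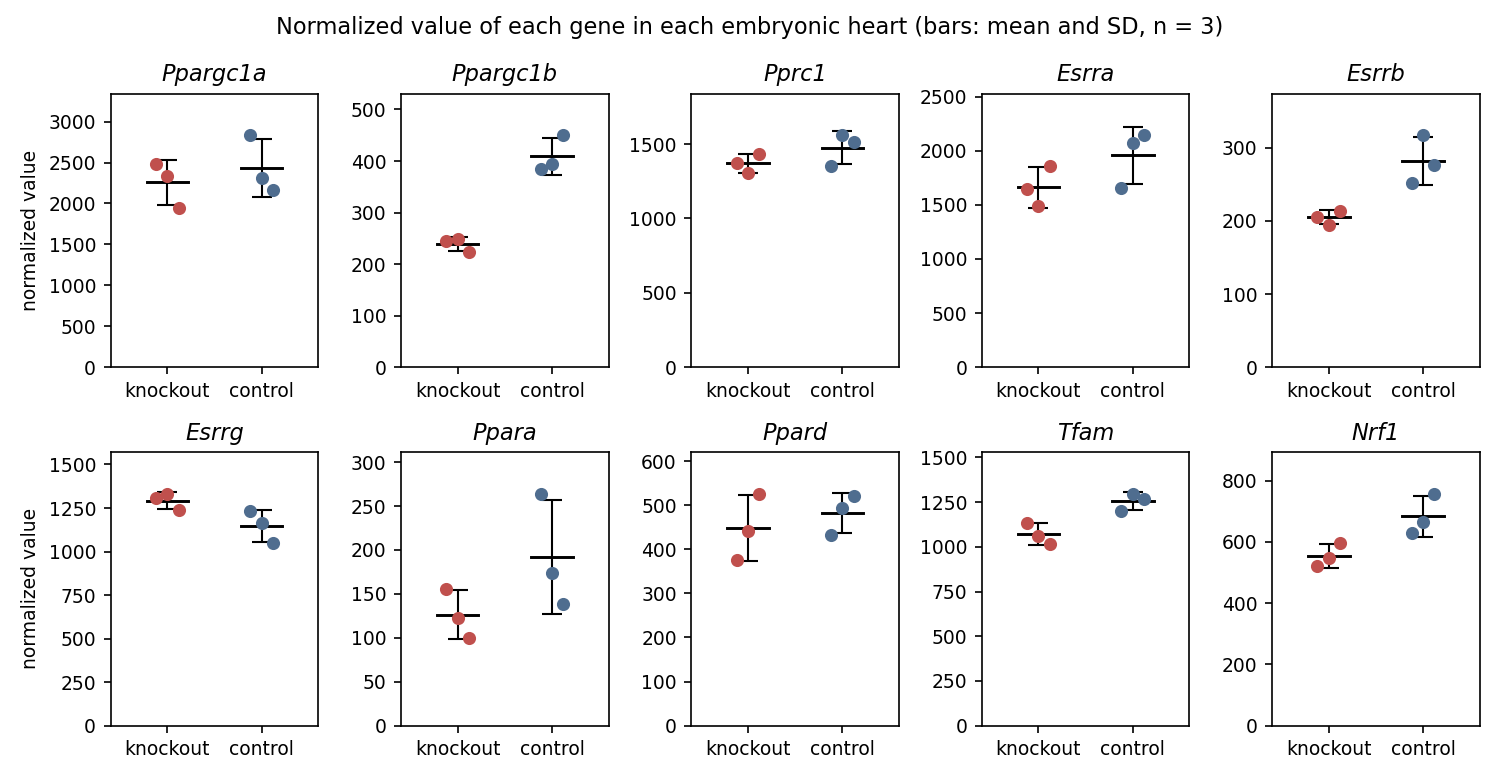
Normalized value (vertical axes, from 0) of each of the 10 genes in each heart, knockouts left and controls right, with the mean and SD as bars (n = 3 each). Ppargc1b lies between 223 and 248 in the knockouts and between 384 and 450 in the controls, while the groups overlap for Ppargc1a, Pprc1, Esrra, Ppara and Ppard.

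Of the coactivators, only Ppargc1b passed the test. It encodes PGC-1beta, a coactivator that sustains mitochondrial gene expression in heart and other oxidative tissues. The gene lies on chromosome 18, 61298136 to 61400431, minus strand (mm10, as are all gene positions here). Ppargc1b was at 244, 248 and 223 in knockout replicates 1, 2 and 3 and at 384, 394 and 450 in control replicates 1, 2 and 3. The highest knockout was well below the lowest control. The means were 238 ± 13.4 in knockouts and 409 ± 35.6 in controls (SD, n = 3 each), which is a log2 fold change of -0.78 (SE 0.10, adjusted p = 0.00129, limma), so that the gene fell by 41.6%. These values rest on an estimated 205 to 458 reads per heart. The fall passed under all 16 alternative settings, with log2 fold changes of -0.82 to -0.60, and -0.60 was the value after scaling to cardiomyocyte markers (limma adjusted p = 0.00542).

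Ppargc1a, which encodes PGC-1alpha, the family member best known for its induction by cold, exercise and fasting, did not pass. The gene spans 51454250 to 51567726 on the minus strand of chromosome 5. It was at 2485, 2335 and 1950 in the knockouts and at 2833, 2312 and 2160 in the controls, with overlapping groups. Its means were 2257 ± 276 in knockouts and 2435 ± 353 in controls (SD, n = 3 each). The log2 fold change was -0.11 (SE 0.11, adjusted p = 0.565, limma), with a 95% interval of -0.36 to 0.15. Without control replicate 1 it was 0.01, and scaled to cardiomyocyte markers it was 0.07.

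Pprc1 encodes PRC, a PGC-1 relative that responds to growth signals (chromosome 19, 46044886 to 46072915, plus strand). It was at 1374, 1306 and 1430 in the knockouts and at 1352, 1559 and 1515 in the controls. The groups overlapped, and the log2 fold change of -0.11 had a 95% interval of -0.27 to 0.06 (limma adjusted p = 0.379). Scaled to cardiomyocyte markers it was 0.07. The gene shares 177 exon bases with Ldb1 on the other strand, and the sources used here do not give whether counting used strand. Ldb1 was at 3948, 4100 and 4504 in the knockouts and at 3230, 3796 and 3937 in the controls. Whether its reads entered the values of Pprc1 was not tested.

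The difference between both PGC-1 genes was examined within each heart. The log2 ratio of Ppargc1b to Ppargc1a was -3.34, -3.23 and -3.12 in the knockouts and -2.88, -2.55 and -2.26 in the controls, so every knockout lay below every control. The mean difference was -0.67, at an exact two-sided permutation p of 0.1, the smallest that 3 hearts against 3 can give. Per kb of exon, Ppargc1b supplied 9.64% ± 0.323 of the summed PGC-1 transcripts in knockouts and 14.6% ± 1.82 in controls (SD, n = 3 each). Ppargc1a supplied 55.1% ± 3.48 in knockouts and 52.1% ± 5.2 in controls.

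Of the ERR genes, Esrrb fell and the other two did not pass. These nuclear receptors have no known natural hormone, bind the response element AAGGTCA, and are the main DNA-bound partners of PGC-1 in heart. Esrrb was the second member called. ERRbeta, its product, is known for roles in placenta and stem cells and has the lowest level of the ERRs per kb of exon in these hearts. On the plus strand of chromosome 12, at 86361117 to 86521628, Esrrb was at 205, 195 and 214 in the knockouts and at 252, 317 and 276 in the controls. All knockouts were below all controls. It averaged 205 ± 9.5 in knockouts and 282 ± 32.9 in controls (SD, n = 3 each), a fall of 27.0% and a log2 fold change of -0.45 (SE 0.11, 95% interval -0.71 to -0.20, adjusted p = 0.0231, limma). The call rested on single hearts: adjusted p was 0.0883 without control replicate 2, 0.0616 without control replicate 3 and 0.0909 without knockout replicate 2. Scaled to cardiomyocyte markers, the log2 fold change was -0.27 (limma adjusted p = 0.139).

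Esrra, the gene of ERRalpha, is the ERR most tied to respiratory chain genes (chromosome 19, 6910977 to 6921813, minus strand). Esrra was at 1642, 1485 and 1856 in the knockouts and at 1653, 2073 and 2143 in the controls. Control replicate 1 lay within the knockout range, so the groups overlapped. The log2 fold change was -0.23 (SE 0.11, 95% interval -0.48 to 0.01, adjusted p = 0.182, limma). It passed without control replicate 1 (log2 fold change -0.35, limma adjusted p = 0.0382) and was -0.05 when scaled to cardiomyocyte markers. Esrra shares 73 exon bases with Trmt112 on the other strand, a gene at 231 to 275 in knockouts and 223 to 290 in controls.

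Esrrg was the one member with higher values in the knockouts. Its product ERRgamma is known for the switch of heart muscle to oxidative metabolism around birth. Esrrg, on the plus strand of chromosome 1 at 187608791 to 188214885, was at 1306, 1332 and 1239 in the knockouts and at 1231, 1166 and 1050 in the controls. The groups did not overlap, but the lowest knockout and the highest control were close. The log2 fold change of 0.17 (SE 0.08, 95% interval 0.00 to 0.34) did not pass (limma adjusted p = 0.157). Scaled to cardiomyocyte markers it was 0.35 and passed (limma adjusted p = 0.0154).

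Within each heart, the log2 ratio of Esrrg to Esrra was -0.33, -0.16 and -0.58 in the knockouts and -0.42, -0.83 and -1.03 in the controls. The groups overlapped, and the mean difference of 0.40 had an exact two-sided permutation p of 0.2. Of the ERR transcripts per kb of exon, Esrrg made up 33.7% ± 3.18 in knockouts and 27.5% ± 4.17 in controls, Esrra 60.9% ± 3.25 in knockouts and 65.6% ± 4.22 in controls, and Esrrb 5.46% ± 0.0691 in knockouts and 6.87% ± 0.443 in controls (SD, n = 3 each).

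Neither PPAR gene passed the test. PPARs are receptors for fatty acids that pair with RXR, and PPARalpha is the main driver of fatty acid oxidation genes in the adult heart. Ppara, on chromosome 15 from 85734983 to 85802819 (plus strand), stood at 156, 123 and 100 in the knockouts and at 264, 174 and 138 in the controls. The groups overlapped, since knockout replicate 1 exceeded control replicate 3. Means were 126 ± 28.1 in knockouts and 192 ± 64.9 in controls (SD, n = 3 each), which is a log2 fold change of -0.57 (SE 0.23, 95% interval -1.09 to -0.05, adjusted p = 0.125, limma). Without control replicate 1 the log2 fold change was -0.32. Ppara was the most variable member, with a coefficient of variation of 22.3% in knockouts and 33.8% in controls, and had the fewest reads, an estimated 97 to 259 per heart. With the replicate number as a block the same log2 fold change passed (limma adjusted p = 0.0138), although nothing states that the numbers pair the hearts.

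Ppard encodes PPARdelta, which also acts on fatty acid use in heart and skeletal muscle (chromosome 17, 28232700 to 28301474, plus strand). It was at 376, 442 and 526 in the knockouts and at 433, 493 and 521 in the controls. All controls lay within the range of the knockouts. The log2 fold change was -0.12 (SE 0.13, 95% interval -0.40 to 0.17, adjusted p = 0.577, limma). Without knockout replicate 1 it was 0.00, and scaled to cardiomyocyte markers it was 0.06.

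Tfam and Nrf1 lay just outside the threshold. TFAM binds and bends mitochondrial DNA, starts its transcription and packs it into nucleoids. Tfam, on the minus strand of chromosome 10 at 71225464 to 71238280, was at 1136, 1063 and 1017 in the knockouts and at 1199, 1297 and 1266 in the controls. All knockouts were below all controls. It averaged 1072 ± 60.0 in knockouts and 1254 ± 50.1 in controls (SD, n = 3 each), with a log2 fold change of -0.23 (SE 0.07, 95% interval -0.39 to -0.07, adjusted p = 0.0548, limma). It passed in 4 of the 16 alternative settings, with adjusted p of 0.0478 without control replicate 1 and 0.0497 without knockout replicate 1, and was -0.05 when scaled to cardiomyocyte markers.

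Nrf1, not to be confused with the stress factor gene Nfe2l1, encodes a DNA-binding activator of respiratory chain and Tfam promoters (chromosome 6, 30047988 to 30153458, plus strand). It was at 520, 547 and 595 in the knockouts and at 628, 664 and 757 in the controls, again without overlap. Means were 554 ± 38.0 in knockouts and 683 ± 66.6 in controls (SD, n = 3 each). The log2 fold change was -0.30 (SE 0.09, 95% interval -0.51 to -0.09, adjusted p = 0.0532, limma). It passed in 3 of the 16 settings, among them without control replicate 1 (adjusted p = 0.0389), and was -0.12 when scaled to cardiomyocyte markers.

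**Figure D2:**
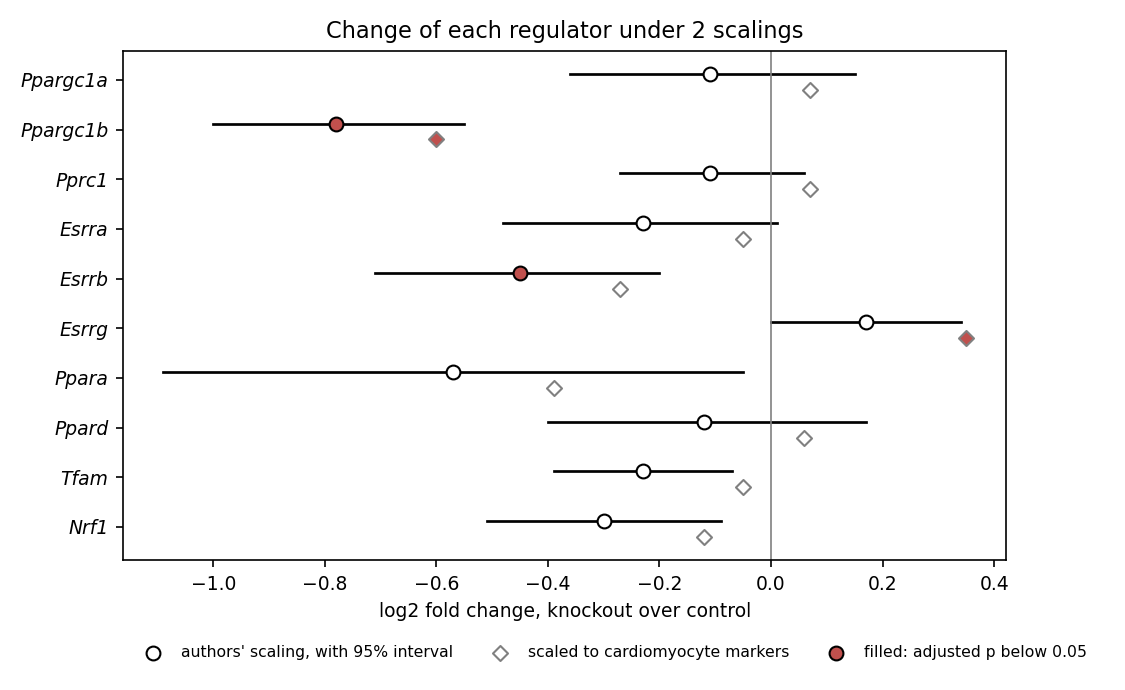
Log2 fold change (horizontal axis, knockout over control) of each gene, as circles with 95% intervals on the authors' scaling and as diamonds after scaling to cardiomyocyte markers, filled where the adjusted p was below 0.05. Ppargc1b is filled under both at -0.78 and -0.60, Esrrb on the authors' scaling alone at -0.45, and Esrrg after the other scaling alone at 0.35.

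Levels were compared between genes per kb of exon. Esrra, at 379 ± 42.5 normalized value per kb in knockouts and 446 ± 60.4 in controls, and Ppargc1a, at 342 ± 41.9 in knockouts and 369 ± 53.5 in controls, stood at the top and overlapped each other among the controls. Tfam followed at 242 ± 13.5 in knockouts and 283 ± 11.3 in controls. Below it came Pprc1 at 218 ± 9.88 in knockouts and 235 ± 17.4 in controls, and Esrrg at 208 ± 7.73 in knockouts and 185 ± 14.8 in controls (SD, n = 3 each for all). These 3 did not overlap each other or the genes above them among the controls.

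The remaining members were scarcer. Ppargc1b was at 59.7 ± 3.37 normalized value per kb in knockouts and 103 ± 8.92 in controls. In the controls it stood apart from Nrf1, at 53.9 ± 3.69 in knockouts and 66.4 ± 6.47 in controls, and from Ppard, at 59.6 ± 10 in knockouts and 64.2 ± 5.98 in controls. Nrf1 and Ppard overlapped each other in the controls, and in the knockouts Ppargc1b overlapped both. Ppara, at 32.9 ± 7.34 in knockouts and 50.1 ± 16.9 in controls, and Esrrb, at 33.8 ± 1.57 in knockouts and 46.6 ± 5.44 in controls, were lowest, and these neighbours overlapped each other, as did Ppara and Ppard in the controls.

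**Figure D3:**
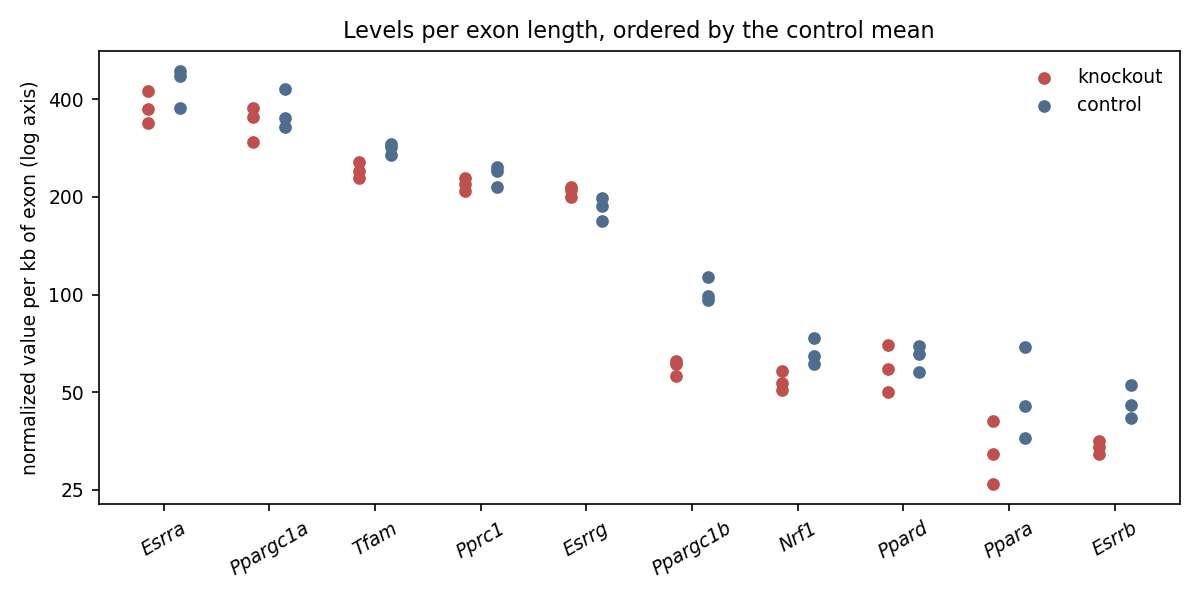
Normalized value per kb of exon (vertical log axis) in each heart, knockouts left of controls, with genes ordered by the control mean. Esrra and Ppargc1a are the most abundant, and Ppargc1b, at a mean of 59.7 in knockouts and 103 in controls, reaches the range of Nrf1 and Ppard in the knockouts.

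The genes whose pattern over the 6 hearts was most like that of Ppargc1b, of 7558 compared, were Iqgap3, Got1, Hirip3, Sptb and Neurl1b. Likeness was the root mean square difference of centred log2 values, from 0.044 for Iqgap3 to 0.074 for Neurl1b. The closest, Iqgap3, a scaffold protein gene of dividing cells, was at 1123, 1139 and 1106 in the knockouts and at 1814, 1926 and 2070 in the controls. Got1, the cytosolic aspartate aminotransferase of the malate-aspartate shuttle, was at 3857, 4020 and 3483 in the knockouts and at 6358, 6067 and 7655 in the controls. This is a description of genes picked for likeness over 6 hearts and has no test.

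Promoter sequence was taken from RefSeq (GRCm38.p6), in windows from 250 bases before to 50 after a start site. The windows searched, which need not be all that RefSeq holds, included 14 for 9 members. None belonged to Ppargc1b, so its promoter was not examined. Each window was searched on both strands for the ERR element AAGGTCA, the palindromic NRF1 site (its letters are the capitals in the Ppara line below) and the ETS site bound by GABP, CCGGAAGT. The ERR element was in 0 of the 14 windows, against 4.72% of all 32851 windows searched. The NRF1 site was in 1, at Ppara (0.971% of all windows), and the ETS site in 1, at Tfam (3.89% of all windows). No matches of different motifs overlapped in these windows. The 200 bases before the start are shown for those 2 genes and for Esrrb, the called member with a window, in which none of the 3 motifs was found. Another Esrrb start site, with chr12:86421444-86421643 before it, is not shown, and its window also held none of the 3 motifs. Capitals mark the motif, which begins at base -47 of Tfam (chr10:71238045-71238244, minus strand) and at base -31 of Ppara (chr15:85735576-85735775, plus strand), while Esrrb is chr12:86360917-86361116, plus strand.
Tfam: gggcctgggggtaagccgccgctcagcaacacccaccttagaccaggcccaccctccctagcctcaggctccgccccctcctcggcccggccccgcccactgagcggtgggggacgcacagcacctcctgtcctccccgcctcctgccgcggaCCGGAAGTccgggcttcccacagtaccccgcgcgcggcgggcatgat
Ppara: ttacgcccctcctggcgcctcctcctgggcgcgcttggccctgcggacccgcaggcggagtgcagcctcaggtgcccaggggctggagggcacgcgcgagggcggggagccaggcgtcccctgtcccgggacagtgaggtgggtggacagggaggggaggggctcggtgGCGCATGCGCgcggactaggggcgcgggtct
Esrrb: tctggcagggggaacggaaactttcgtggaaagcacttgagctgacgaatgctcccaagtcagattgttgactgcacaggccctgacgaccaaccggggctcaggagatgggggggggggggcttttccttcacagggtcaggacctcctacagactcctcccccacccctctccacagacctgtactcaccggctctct
A match describes the letters of the window and is not a measured binding site.

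The pathway genes around the members were then counted in 7 lists. Without the members the lists held 183 distinct genes, of which 180 were tested, with 6 higher and 44 lower in the knockouts. That is 27.8% called, where 17.2% of all genes tested were, and the median log2 fold change was -0.08. Of the 50 called genes, 25 are on the list of ERR targets. Without knockout replicate 2 the count, in either direction, was 26 in place of 50, and without control replicate 3 it was 32. Scaled to cardiomyocyte markers it was 27, but these were not mainly the same falls. ERR targets then had 2 lower and 2 higher, in place of 25 lower and 0 higher. PPAR targets of fatty acid use then had 0 lower and 8 higher, in place of 4 lower and 3 higher. Counts for single lists are given next, in the order of the members they belong to.

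The citrate cycle and respiratory chain genes known as ERR targets fell most widely. Of 39 genes, all tested, 25 fell (64.1%, where 8.56% of all genes tested did), 0 rose and the median log2 fold change was -0.29. The count includes none of the members, since Esrra is on the list but did not pass. The lowest p belonged to Mfn2, which fuses mitochondrial outer membranes, at 7840, 7834 and 7333 in the knockouts and 10377, 10527 and 11720 in the controls (log2 fold change -0.50, SE 0.07, limma adjusted p = 0.00163). Fh1, the citrate cycle enzyme fumarase, had a log2 fold change of -0.49 (SE 0.07), Ogdh, a subunit of the 2-oxoglutarate dehydrogenase complex, -0.42 (SE 0.07), and Idh3a, a subunit of isocitrate dehydrogenase, -0.39 (SE 0.07).

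Genes that fell came from both the citrate cycle and the respiratory chain. All 3 subunits of isocitrate dehydrogenase fell, with Idh3b at -0.36 and Idh3g at -0.30 on the log2 scale beside Idh3a. In complex II, Sdha (-0.41), Sdhb (-0.37) and Sdhc (-0.36) fell while Sdhd (-0.12) did not pass, and in complex III Cyc1 (-0.44), Uqcrfs1 (-0.36), Uqcrc1 (-0.36) and Uqcrc2 (-0.29). The ATP synthase genes Atp5a1 (-0.32) and Atp5b (-0.27) were among the most abundant on the list, Atp5b at 84491 ± 1340 in knockouts and 102075 ± 4459 in controls (SD, n = 3 each). The 14 genes of the list that did not pass had log2 fold changes from -0.31 for Cycs to 0.22 for Ckmt2, 9 below 0 and 5 above it. They were Esrra, the citrate synthase gene Cs, cytochrome c (Cycs), Ndufs1 and Ndufa4, Sdhd, Atp5g3, the ADP/ATP carrier Slc25a4, the muscle forms Cox6a2, Cox7a1 and Cox8b of cytochrome c oxidase subunits, the creatine kinase Ckmt2, Mb (myoglobin) and Perm1.

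The count for the ERR list moved with single hearts and with the scaling. It was 12 without knockout replicate 2 and 16 without control replicate 3. Scaled to cardiomyocyte markers, 2 of the 39 genes were lower and 2 higher. Summed values of the list were 545364, 527413 and 521064 in the knockouts and 609570, 623323 and 662964 in the controls. The part of cell composition in this result was not tested.

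Among genes of the ERR list that fell, the ERR element was found at the start site of Ogdh alone. The 39 RefSeq promoter windows searched for the list cover 30 of its genes. Of these windows, 4 (10.3%) hold AAGGTCA, those of Atp5g3, Ogdh, Perm1 and Sdhd, and of these genes only Ogdh was called. The 25 windows of genes that fell cover 18 genes, and 4% of them hold the element, where 4.72% of all windows do. On the list of PPAR targets, 1 of 4 windows of genes that fell holds it, that of Acadm. The stretch of Ogdh (chr11:6292135-6292171, plus strand) carries the element on the opposite strand, in capitals, from base -5.
Ogdh: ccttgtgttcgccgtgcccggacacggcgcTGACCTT

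Calls among PPAR targets of fatty acid use were near the share of all genes tested. Of 29 tested, of 31 listed, 3 rose (10.3%, where 8.61% of all genes did), 4 fell (13.8%, where 8.56% did) and the median log2 fold change was 0.02. Among those that rose was Lpl, which releases fatty acids from lipoproteins, at 15462, 18125 and 15133 in the knockouts and 11961, 10369 and 11363 in the controls (log2 fold change 0.53, SE 0.09, limma adjusted p = 0.00334). Ucp2, a carrier of the inner mitochondrial membrane, also rose, at 1252 ± 97.2 in knockouts and 967 ± 104 in controls (SD, n = 3 each; log2 fold change 0.38, SE 0.09).

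Those that fell act on fatty acid activation and oxidation. Acsl1, which activates long-chain fatty acids, was at 3881, 4208 and 3875 in the knockouts and at 6061, 4836 and 6508 in the controls (log2 fold change -0.53, SE 0.10). Cpt2, of the carnitine shuttle, had a log2 fold change of -0.44 (SE 0.08), and the beta-oxidation enzymes Acadm and Acaa2 of -0.28 and -0.26 (SE 0.07 each). Scaled to cardiomyocyte markers, 8 genes were higher and 0 lower. Leaving out control replicate 3, knockout replicate 2 or knockout replicate 3 left 2 lower in each case, as did embryo sex as a term. Fgf21, at 0 to 2 in knockouts and 0 to 1 in controls, and Ucp3, at 2 to 5 in knockouts and 4 in every control, were not tested.

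Among NRF1 and GABP targets, 5 of 14 tested fell (35.7%, where 8.56% of all genes tested did) and 0 rose. The median log2 fold change was -0.18. Sco2 is listed at 0 in every heart and was not tested, and Tfam is on the list and did not pass. Alas1, the first enzyme of heme synthesis, had a log2 fold change of -0.38 (SE 0.07, adjusted p = 0.00607, limma), and Cox5b, a cytochrome c oxidase subunit, of -0.41 (SE 0.08). Atp5g1, an ATP synthase subunit, was at -0.28 (SE 0.09). Tfb1m, a ribosomal RNA methyltransferase of mitochondria, was at 155, 151 and 139 in the knockouts and at 251, 218 and 206 in the controls (-0.59, SE 0.12, limma adjusted p = 0.00858). Its relative Tfb2m, the partner of the mitochondrial RNA polymerase, was at 255, 247 and 257 in the knockouts and at 368, 299 and 324 in the controls (-0.38, SE 0.10, limma adjusted p = 0.0334). Both stood apart from the controls in every knockout. The count was 3 without control replicate 3, without knockout replicate 2 or without knockout replicate 3, 3 with embryo sex as a term, and 1 when scaled to cardiomyocyte markers. Of 6 promoter windows of the genes that fell, 2 hold the NRF1 site, both of Alas1, where 0.971% of all windows do. The ETS site is in 0 of them.

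Genes that maintain and transcribe mitochondrial DNA were counted beside Tfam. Of 29 tested, 8 fell (27.6%, where 8.56% of all genes tested did), 0 rose and the median log2 fold change was -0.08. Beside Tfb1m and Tfb2m these were Lrpprc, which stabilizes mitochondrial messenger RNA (-0.39, SE 0.07), Atad3a, a nucleoid-associated membrane ATPase (-0.35, SE 0.07), Dna2, a nuclease and helicase (-0.47, SE 0.10), Mgme1 (-0.43, SE 0.11), an exonuclease of mitochondrial DNA, the protease Lonp1 (-0.28, SE 0.07) and the elongation factor Tefm (-0.31, SE 0.09). The polymerases did not pass, with -0.19 for Polrmt (limma adjusted p = 0.303) and -0.08 for Polg (limma adjusted p = 0.451). The count was 4 without control replicate 3 or without knockout replicate 2, 5 without knockout replicate 3, 4 with embryo sex as a term and 1 when scaled to cardiomyocyte markers. The 37 genes encoded in mitochondrial DNA are at 0 in every heart in the table and were not analysed here.

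Genes of the proteins that work with these regulators were counted next. Of 30 receptor partners, coactivators and corepressors, 2 rose (6.67%, where 8.61% of all genes tested did) and 1 fell (3.33%, where 8.56% did). The median log2 fold change was -0.03. Ncoa1, a general nuclear receptor coactivator, fell to 855, 880 and 852 in the knockouts, against 1161, 1155 and 1134 in the controls (log2 fold change -0.41, SE 0.06, limma adjusted p = 0.00264). Tbl1xr1, of the NCoR corepressor complex, rose (0.33, SE 0.07, limma adjusted p = 0.0109). Rxrg, a partner receptor of PPARs, was low at 23, 21 and 19 in the knockouts and 9, 9 and 6 in the controls (1.31, SE 0.30, limma adjusted p = 0.0148). The more abundant partner Rxra was at -0.05 and Gabpa at -0.03, both without a call. Without knockout replicate 2 the 2 rises were 0, and without knockout replicate 3 the falls were 3.

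Of 30 kinases and factors upstream of the PGC-1 genes, 2 fell (6.67%, where 8.56% of all genes tested did) and 0 rose. The median log2 fold change was -0.07. Prkaa2, the catalytic alpha-2 subunit of AMP-activated kinase, was at 4119, 3727 and 3041 in the knockouts and at 6031, 5076 and 5307 in the controls (log2 fold change -0.60, SE 0.11, limma adjusted p = 0.00548). Camk2d, the main calcium/calmodulin-dependent kinase II of heart, was at 4211 ± 406 in knockouts and 5653 ± 355 in controls (-0.43, SE 0.08, limma adjusted p = 0.00694). Scaled to cardiomyocyte markers, 2 were lower and 6 higher. In the list of mitochondrial fusion, fission and turnover, 3 of 19 fell (15.8%), 1 rose (5.26%, where 8.61% of all genes did) and the median was 0.02. Beside Mfn2, the falls were Opa1, which fuses inner membranes (-0.41, SE 0.08), and Oma1, the protease that cuts OPA1 (-0.31, SE 0.09). Bnip3l, a receptor for mitophagy, rose (0.23, SE 0.07, limma adjusted p = 0.0461), a call lost without control replicate 2, control replicate 3, knockout replicate 2 or knockout replicate 3.

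**Figure D4:**
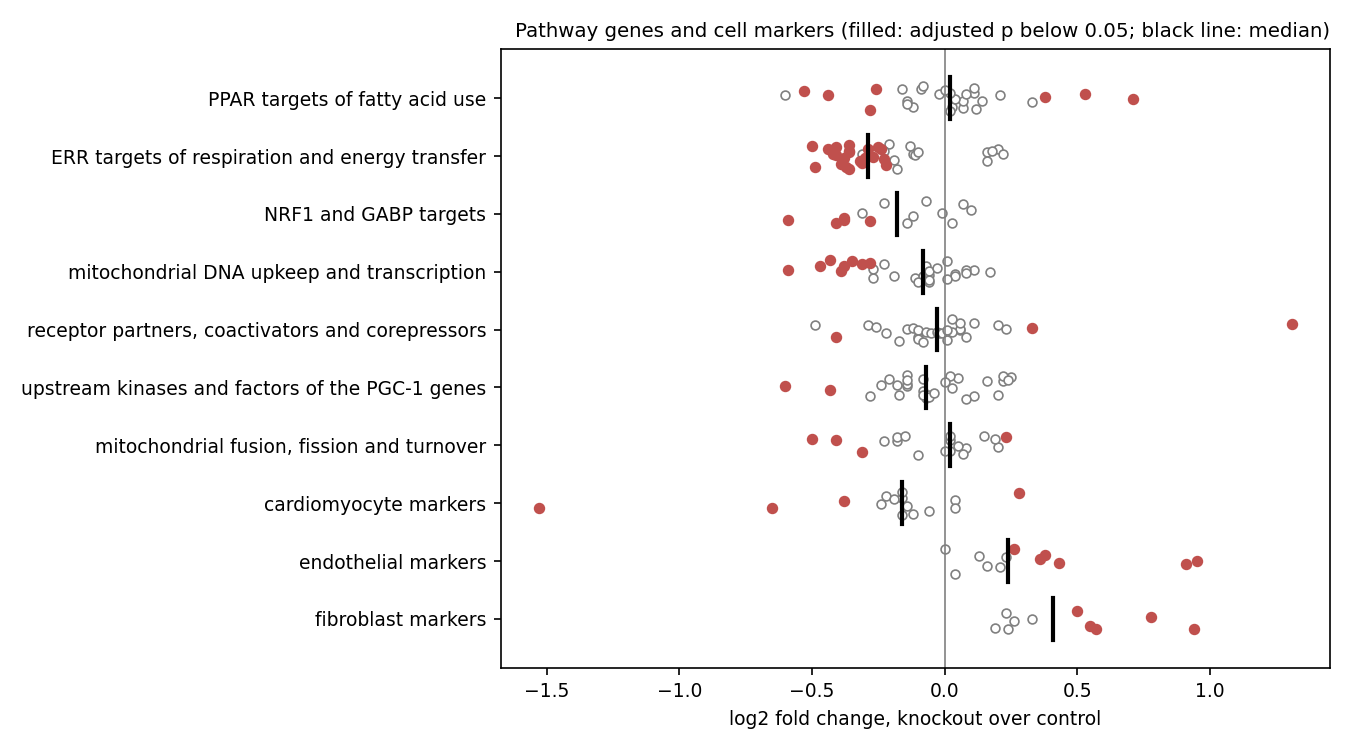
Log2 fold change (horizontal axis, knockout over control) of each tested gene of the 7 pathway lists and of 3 marker lists, filled where the adjusted p was below 0.05, with the list's median as a black line. Filled points of the ERR targets lie left of 0 (25 of 39, median -0.29), while those of endothelial and fibroblast markers lie right of it (6 of 12 and 5 of 10).

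Markers of the cell types in the heart moved beside these lists. For every marker list, the shares over all genes tested were 8.61% higher and 8.56% lower. Of 15 cardiomyocyte markers, 3 fell, 1 rose and the median log2 fold change was -0.16. Myh6, the alpha-myosin heavy chain gene, was at 34233 ± 4608 in knockouts and 98536 ± 10600 in controls (-1.53, SE 0.11), the atrial light chain gene Myl4 was at -0.65 (SE 0.10), the cardiac actin gene Actc1 at -0.38 (SE 0.11) and Pln, phospholamban, at 0.28 (SE 0.08). The rise of Pln held without knockout replicate 3 and was lost when any other single heart was left out. All 15 markers were detected, Myh7 at 252430 to 255361 in knockouts and 252616 to 283966 in controls, so the labelled tissue carried its defining markers. Reads can be shared between Myh6 and Myh7 and among actin genes, which makes their values less certain.

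Endothelial markers rose in 6 of 12 (median 0.24), led by Npr3 (0.95) and Emcn (0.91), with Tek (0.43) and Tie1 (0.36). The other 6 did not pass: Flt1 (0.23), Pecam1 (0.21), Erg (0.16), Esam (0.13), Kdr (0.04) and Cdh5 (0.00). Without knockout replicate 2 the count of rises was 3. Fibroblast markers rose in 5 of 10 (median 0.41), among them Vcan (0.94), Tcf21 (0.78), Col3a1 (0.55) and Postn (0.50). Macrophage and leukocyte markers rose in 6 of 9 (median 0.82), among them C1qb (1.04), C1qa (0.95), Adgre1 (0.92) and Csf1r (0.82), with summed values of 2139 to 2925 in knockouts and 1537 to 1648 in controls. Smooth muscle and pericyte markers fell in 3 of 8 (median 0.09), Cnn1 (-2.16), Acta2 (-1.74) and Myh11 (-1.49). The other 5 did not pass: Notch3 (0.32), Pdgfrb (0.26), Kcnj8 (0.24) and Tagln (0.20) were above 0, and Rgs5 was at -0.02. The list thus did not move as a whole. None of 6 epicardial markers passed (0 called by limma, median 0.27), with Msln at 0.33 and Upk1b at 0.35. None of 8 erythroid markers did (median -0.52), with Hbb-y at 0.68 and Hba-a1, which can share reads with Hba-a2, at -0.56. Summed values of the erythroid list were 30661 to 37857 in knockouts and 38001 to 66250 in controls.

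Markers of brown fat and skeletal muscle, other tissues that depend on PGC-1, were low or at 0 apart from Fabp4 and Cidea. Ucp1 was at 0 to 2 in knockouts and 0 to 1 in controls, Adipoq at 0 to 2 in knockouts and 0 to 1 in controls, Myf5 at 0 to 1 in knockouts and 0 in controls, and Myod1 at 0 in every heart. Of the skeletal muscle markers, Myh8 was at 48 to 57 in knockouts and 48 to 59 in controls, Tnnt3 at 37 to 48 in knockouts and 30 to 40 in controls, Myh3 at 9 to 22 in knockouts and 9 to 18 in controls, and Myog at 3 to 12 in knockouts and 0 to 6 in controls. The summed value of the list, 4850 to 5502 in knockouts and 5320 to 5567 in controls, was mostly Fabp4, which endothelial cells also express. Of the 5 markers tested, 1 rose. That was Cidea, a lipid droplet protein gene that PGC-1 and PPARs are known to induce in brown fat, at 311, 380 and 308 in the knockouts and 134, 163 and 108 in the controls (log2 fold change 1.31, SE 0.16, limma adjusted p = 0.000941). Its lowest knockout was well above its highest control.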

How the data were processed

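Poly(A) RNA of 6 hearts was measured, 3 per group, with groups and replicate numbers taken from titles and genotypes. The submitters' processing notes name build mm10 and the tools DESeq, DESeq2, featureCounts 1.5.0, STAR 2.4.2a and Trimmomatic; the role of each, and strand use in counting, are not given in the sources used here. The deposited values are best called a score: whole numbers that the authors made from reads per gene by dividing each sample by its own factor and rounding, as the values themselves show. What 1 read was worth, 0.692 to 1.423, was read from the spacing of values up to 150, and gave the estimated depths.

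Genes with a mean of at least 10 were tested with limma 3.58.1 (R 4.3.3), with a variance trend, on log2(value + 1), by group only; this understates changes of low genes, which also carry more counting error. The script was tested on simulated data. Per-gene lengths and positions came from GENCODE M21 on the same build, in which 45143 of 45706 identifiers were found. Figures used matplotlib 3.10.9 and tables numpy 2.4.6 and pandas 2.3.3 in Python 3.11.15. Limma p-values weigh the group difference against the spread between these hearts within groups. For this, each gene's variance was drawn towards the trend over all genes tested.

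The members and the 15 gene lists were chosen with earlier results of these data known, and the lists were not picked by how genes moved. Named genes were all members, Rbpms and Rbpms2, up to 4 genes past the threshold per list with the smallest p (2 where none passed), and the 5 most like the member with the smallest p; further list genes were named after their values were seen. Not every gene that this rule takes is reported here. Alternatives were pseudocounts of 0.1 and 10, limma-voom on the estimated reads, no filter, a stricter filter (at least 50 in 3 samples), the replicate number as a block, embryo sex as a term, equal totals, quantile normalization, leaving out each heart and, chosen after seeing the data, scaling to cardiomyocyte markers. Every pair of replicates within a group differed beyond sampling noise.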

Additional observations from a re-analysis of the deposited data

How the results depend on the processing

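Of the 15556 genes tested, 2670 were called; with no filter on low values 1755 were, and without each heart in turn 1305 to 2370. Of the 10 members, 2 were called on the authors' scaling, 4 with the stricter filter (Tfam and Nrf1 added), 5 with the replicate block (Ppara, Tfam and Nrf1 added) and 1 to 5 without each heart, the 5 being without control replicate 1. Of the pathway list genes 50 were called in either direction, and 26 to 44 without each heart. Scaled to cardiomyocyte markers 27 were called, with the ERR targets at 2 lower and 2 higher in place of 25 lower and 0 higher. That scaling turned the direction of Ppargc1a (0.07), Pprc1 (0.07) and Ppard (0.06), none of them called, and gave 3216 genes higher and 474 lower, 87.2% higher against 50.1% on the authors' scaling; equal totals gave 59%. Without each heart, Ppargc1a ran from -0.19 to 0.01 and Ppard from -0.24 to 0.00. The cause of these shifts was not tested. With embryo sex as a term 2090 genes, 2 members and 36 list genes were called. Ppargc1b kept its call in all 16 settings and Esrrb in 12.

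Nothing states that the replicate numbers pair the hearts. Same-numbered hearts deviated together with correlations of -0.04, -0.37 and 0.05, and differently numbered hearts with -0.25 to 0.27. Deviations from a mean of 3 hearts are tied to each other, so these values cannot show whether hearts were paired. The replicate block called 3530 genes, and under it the log2 ratio of Ppargc1b to Ppargc1a was -0.67 (exact permutation p = 0.25, the smallest 3 pairs can give). The ratio of Esrrg to Esrra was 0.40 there, as without the block. Ppara had the fewest estimated reads of the members, 97 in its lowest heart. Counting error is not shown by the deposited scale.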
